A study of Homo sapiens with 3 samples.

Results

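RBM17 binding was examined along the transcripts of MAN2A2, GSE1, MACF1 and CDK5RAP3, 4 genes that carry many RBM17 peaks although none of them encodes a splicing factor. They are 4 of the 10872 genes with a cluster in replicate 2. The genes were chosen by their 7 or 8 peaks in the authors' reproducible list, so the number of peaks and every fold behind it are given as a description, with no test. Together they hold 30 of the 866 reproducible peaks, 254 of 137095 clusters in replicate 1 and 222 of 119066 clusters in replicate 2. RBM17 eCLIP was performed in K562, an established line of chronic myelogenous leukemia cells for which the labels name no knockdown or treatment, in 2 replicates that were immunoprecipitated with RBM17 antibodies and set against 1 size-matched input. By the methods, this input was taken from the mix of lysate and antibody beads before washing, while its label names no antibody. Ultraviolet light fixes a protein to the RNA it touches, and eCLIP sequences the RNA that comes down with the protein. The replicates are called biological, and the sources used here do not say that they came from separate cultures. A cluster is an interval in which the peak caller found more reads than expected along the same transcript, and a reproducible peak is an interval that the authors kept over both replicates.

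RBM17, also called SPF45, is a splicing factor that acts when the spliceosome selects a 3’ splice site, and it is known for its part in the splicing of short introns. The 4 transcripts encode proteins of unrelated function. MAN2A2 is a Golgi α-mannosidase that trims mannose residues from N-glycans on their way to the complex form. GSE1 is a coiled-coil protein found with histone deacetylase complexes of the CoREST type. MACF1 is a giant spectraplakin that links actin filaments to microtubules. CDK5RAP3 is a partner of UFL1, the ligase that attaches the small modifier UFM1 to proteins at the endoplasmic reticulum and the ribosome.

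The replicates carry different measures. For replicate 1, each cluster has a log2 fold over the input and a −log10 p, and no reads, so its depth is unknown. For replicate 2, each cluster has a number of reads and a p-value of the caller that is not relative to the input. Clusters of replicate 2 held 1336569 reads in all, with 3 to 8215 reads each and a median of 5, and the median gene held 33. More binding per transcript and more transcript cannot be told apart in replicate 2. A reproducible peak has 1 log2 fold and 1 −log10 p listed for both replicates, so there is no replicate error on it. How these were formed from the replicates is not given in the sources used here. The listed −log10 p was 9.46 against 66.1 in replicate 1 at chr15:91455556-91455591 in MAN2A2. In GSE1 it was 5.33 in both at chr16:85699642-85699677. At chr16:85696109-85696167 it was 7.05, against 5.91 in a replicate 1 cluster of a shorter stretch, chr16:85696115-85696159. At no peak with the same interval as a replicate 1 cluster was the listed value above that of replicate 1. The listed −log10 p is therefore not read as the joint evidence of both replicates. All positions of clusters and peaks are in hg19, which was judged from their range on chromosome 1.

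All 4 genes lay among those with the most reads in replicate 2. MACF1 held 1218 reads in 122 clusters, GSE1 968 reads in 52, CDK5RAP3 807 reads in 20 and MAN2A2 549 reads in 28. These totals placed the genes at ranks 64, 92, 123 and 242 of 10872. The reads were spread differently. In CDK5RAP3 the clusters held 12 to 104 reads with a median of 37, whereas in MACF1 they held 3 to 34 with a median of 10. GSE1 (4 to 52 reads, median 16) and MAN2A2 (8 to 41 reads, median 18.5) lay between them. No cluster of either replicate lay on the opposite strand within the span of the clusters of any of the 4 genes.

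**Figure D1:**
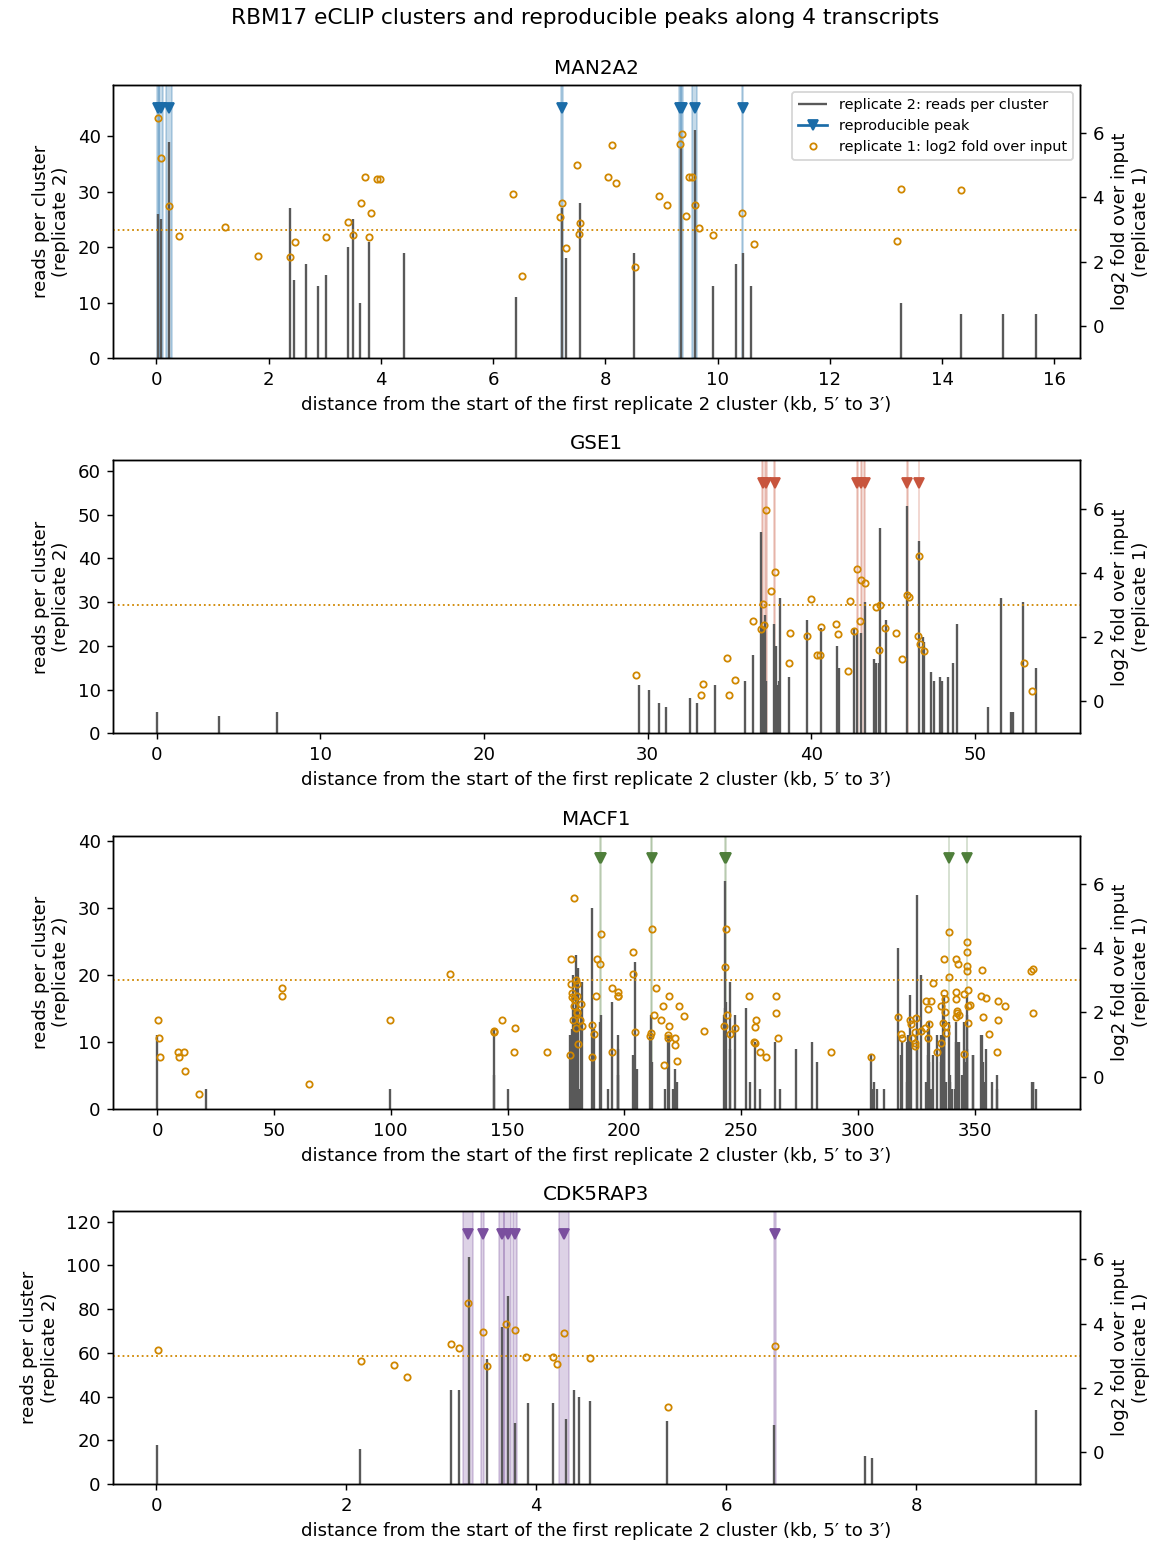
Position of clusters and peaks along MAN2A2, GSE1, MACF1 and CDK5RAP3, with the distance from the start of the first replicate 2 cluster in kb on the x axis, grey lines for the reads of each replicate 2 cluster (left axis) and open circles for the log2 fold over the input of each replicate 1 cluster (right axis, dotted line at 3). Shaded bars with triangles are the reproducible peaks, which span 3295 bp in CDK5RAP3 and 157184 bp in MACF1.

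MAN2A2 had its peaks at the 5’ end of the transcript and, after a gap of 6927 bp, in its middle. Clusters of the gene spanned chr15:91446203-91461877 on the + strand, and the 8 peaks lay in the first 66.6% of it. The first 3 peaks fell within 273 bp at chr15:91446216-91446488, beginning 13 bp after the first cluster of replicate 2. By the annotation that accompanies the peaks, 2 of them lie in the 5’ UTR and the first at a noncoding 5’ splice site and the 5’ UTR. The first of them, chr15:91446216-91446255, had the highest log2 fold of all 30 peaks, 5.78 for both replicates together and 6.46 in replicate 1, with 26 reads in the overlapping cluster of replicate 2. The log2 fold was 4.48 at the next peak, which abuts it, and 3.11 at the third, although the third had more reads (39).

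Within the body of MAN2A2, 4 peaks formed a second group of 1148 bp at chr15:91455514-91456661. This group held 128 of the 549 reads in replicate 2 (23.3%), and in 8 of its 9 replicate 1 clusters both the log2 fold and the −log10 p reached 3. It opens with abutting peaks at a 5’ splice site, chr15:91455514-91455555 and chr15:91455556-91455591. These had log2 folds of 4.52 and 4.82 for both replicates and 5.66 and 5.98 in replicate 1, and a −log10 p of 52.3 and 66.1 in replicate 1, the highest replicate 1 values at any of the 30 peaks. The other 2 peaks of the group carry the labels of coding sequence and 3’ splice site (log2 fold 3.71, 41 reads) and of 5’ splice site and coding sequence (log2 fold 3.56, 19 reads). A single peak in the coding sequence, chr15:91453416-91453443, lay between the groups with a log2 fold of 3.72 and 27 reads.

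In GSE1, all 8 peaks lay in 9585 bp, which is 17.8% of the span of its clusters, chr16:85653073-85706837 on the + strand. This stretch held 59.7% of the reads of the gene. The peaks formed 3 groups of 788, 527 and 754 bp when peaks less than 1000 bp apart were joined. The first group, chr16:85690093-85690880, ran from the coding sequence (log2 fold 3.17, 24 reads) over a 5’ splice site to a 3’ splice site (log2 fold 3.89, 25 and 20 reads in its 2 overlapping clusters). Its peak at the 5’ splice site, chr16:85690272-85690355, had the highest log2 fold of the gene, 5.21 for both replicates and 5.94 in replicate 1, on the fewest reads of any of the 30 peaks (12 in replicate 2).

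The second group of GSE1, chr16:85695866-85696392, consisted of 3 peaks in proximal introns, the part of an intron close to an exon. They had similar values, with log2 folds of 3.84, 4.05 and 3.58 and 23, 23 and 30 reads. The third group, chr16:85698924-85699677, joined another proximal intron peak with the most reads of the gene (52, log2 fold 3.80) to a coding sequence peak (44 reads, log2 fold 4.997). Reads and fold thus did not go together in GSE1: over the 24 clusters of replicate 2 that overlapped one of replicate 1, the Spearman rho of reads with the replicate 1 log2 fold was 0.07. It was 0.23 over 20 clusters of MAN2A2, 0.14 over 71 of MACF1 and 0.63 over 15 of CDK5RAP3, as a description of clusters that share a transcript and a library.

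MACF1 carried 7 peaks scattered over 157184 bp, from chr1:39760793 to chr1:39917976 on the + strand, within a cluster span of 376210 bp. No peaks abutted. The largest gap, 95383 bp, was between chr1:39814936-39814995 and chr1:39910379-39910433. Coding sequence was the first listed region of 5 peaks, the other 2 lay in a distal and a proximal intron, and MACF1 had no peak whose first listed region was a splice site. Its coding sequence peak chr1:39761458-39761488 is also labelled as a 3’ splice site. The peaks of MACF1 were the most uniform in fold, with log2 folds between 4.36 and 4.88 and a median of 4.53. They also rested on few reads. The distal intron peak chr1:39814371-39814466 had 34 reads, the most of any MACF1 cluster, and the other 6 peaks had 13 to 17. Peaks made up 424 bp of the span, 0.113%, and their clusters held 9.93% of the reads (exact Clopper-Pearson 95% interval 8.31 to 11.8%). This interval covers counting error only, since reads come in clusters of 1 library. Over clusters with at least 10 reads the share was 13.3%, outside the interval.

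CDK5RAP3 was the most compact. Of its 7 peaks, 6 fell within 1110 bp at chr17:46051977-46053086 on the + strand, and the clusters of replicate 2 there held 451 of the 807 reads of the gene (55.9%). The first 4 of them lie in proximal introns by their first listed region. Peak chr17:46051977-46052077 had a log2 fold of 4.30, a −log10 p of 27.8 and 104 reads. These were the most reads and the highest listed −log10 p among all 30 peaks. In replicate 1 alone the −log10 p at this interval was 48.4. The abutting peaks chr17:46052354-46052407 and chr17:46052408-46052482 had log2 folds of 3.21 and 4.29 with 72 and 86 reads, and the second is also labelled as a 3’ splice site. The peak after them carries the labels of coding sequence and 3’ splice site (chr17:46052497-46052545, log2 fold 3.56, 28 reads), and a peak at a 5’ splice site came 441 bp later (log2 fold 3.20, 30 reads). The last peak, chr17:46055247-46055271, lay 2160 bp downstream in the coding sequence with a log2 fold of 3.34 and 27 reads.

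Clusters named for another gene touched 3 of the 4. In CDK5RAP3, 2 of the 20 replicate 2 clusters, both upstream of its first peak, overlapped clusters of ENSG00000263798 on the same strand. In MACF1, 3 of 122 overlapped clusters of ENSG00000255103. GSE1 had 1 cluster of RN7SL381P, with 5 reads, within its span and none that overlapped. None of the 30 peaks was at such a cluster.

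Read over the 4 genes, first listed regions were coding sequence at 11 of 30 peaks, proximal intron at 9 and 5’ splice site at 5. The rest were 2 in the 5’ UTR and 1 each at a 3’ splice site, at a noncoding 5’ splice site and in a distal intron. These counts leave out second labels, and a 3’ splice site was the second label at peaks of MAN2A2, MACF1 and CDK5RAP3. The genes differed in this. Proximal introns held 4 of 7 peaks in CDK5RAP3 and 4 of 8 in GSE1, 1 of 7 in MACF1 and 0 of 8 in MAN2A2. Only MAN2A2 among the 4 had peaks in the 5’ UTR. Over the whole list, proximal introns were listed first at 30.4% of peaks, 5’ splice sites at 21.9% and coding sequence at 20.8%. With 7 or 8 neighbouring peaks in each gene, these counts were not tested.

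The fold of replicate 1 was at least 3 on the log2 scale at all 30 peaks, with a range of 3.04 to 6.46 and a median of 3.98. Each peak had exactly the interval of a cluster from one replicate, 18 from replicate 1 and 12 from replicate 2. Where the interval was that of replicate 1, the log2 fold of replicate 1 exceeded that of both replicates together at 16 of 18 peaks. The difference was largest in MAN2A2, with a median of 0.71 over 6 peaks and a highest value of 1.16. In MACF1 the largest such difference was 0.05 over 3 peaks, and in CDK5RAP3 the median was 0.25 over 5. The exceptions were the last peak of GSE1 (4.51 in replicate 1 against 4.997) and the last peak of CDK5RAP3 (3.31 against 3.34). The 4 MACF1 peaks with the interval of replicate 2 had a higher log2 fold for both replicates than the overlapping cluster of replicate 1, which covers a different stretch, for example 4.71 against 3.12 at chr1:39910379-39910433.

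**Figure D2:**
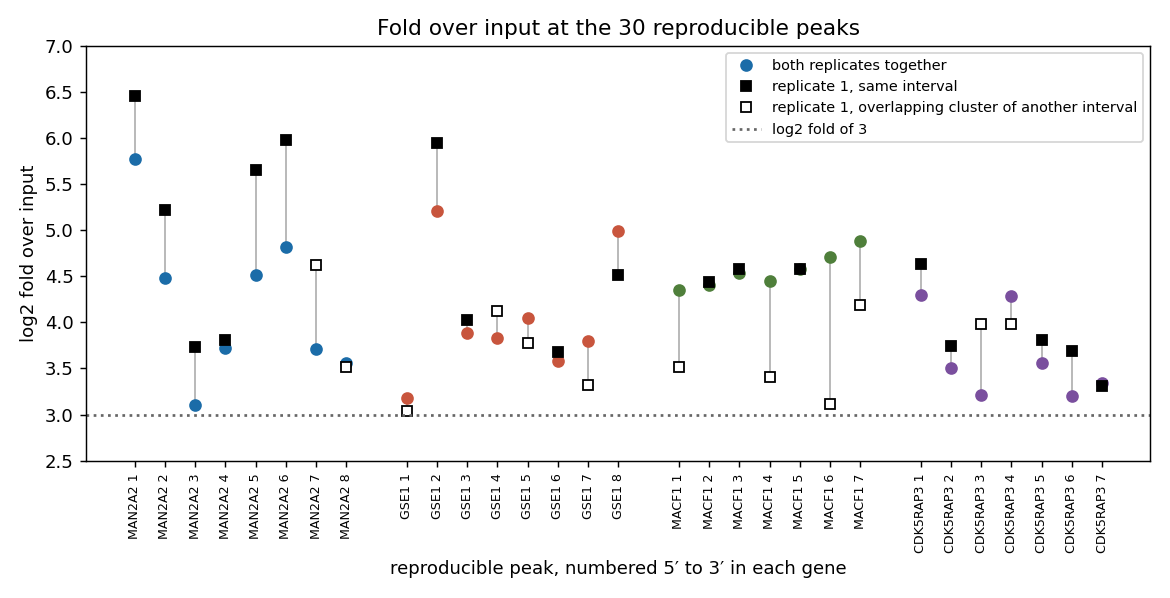
Log2 fold over the input (y axis) at each of the 30 reproducible peaks, numbered 5’ to 3’ in each gene (x axis), for both replicates together (coloured circles) and for the overlapping replicate 1 cluster of highest fold (squares, filled where the interval is the same). All values lie above 3, and the highest are the first peak of MAN2A2 with 5.78 and 6.46.

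The rest of each transcript was examined in replicate 1, where 2 criteria were applied to every cluster. A log2 fold of 3 is the limit of the authors, and a −log10 p of 3 was chosen here, because every value in the deposited list of reproducible peaks lies above it. Of all replicate 1 clusters, 5.35% passed. MAN2A2 had 44 clusters, with log2 folds of 1.54 to 6.46 and a median of 3.62 against 1.51 over all clusters, and 30 passed (68.2%, exact Clopper-Pearson 95% interval 52.4 to 81.4%). CDK5RAP3 had 18 clusters with log2 folds of 1.39 to 4.64, of which 9 passed (50.0%, 26.0 to 74.0%). In GSE1 12 of 43 passed (27.9%, 15.3 to 43.7%), with log2 folds of 0.19 to 5.94. In MACF1 20 of 149 passed (13.4%, 8.40 to 20.0%), with log2 folds from -0.55 to 5.55. The intervals cover counting error only, and clusters of a transcript are not independent.

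When the clusters that overlap a reproducible peak were left out, the genes still differed. In MAN2A2 21 of the remaining 35 clusters passed (60.0%, interval 42.1 to 76.1%), so most of its clusters away from the peaks passed as well. In CDK5RAP3 3 of 12 passed (25%, 5.49 to 57.2%). In GSE1 4 of 35 passed (11.4%, 3.20 to 26.7%) and in MACF1 13 of 142 (9.15%, 4.97 to 15.1%), and the intervals of GSE1 and MACF1 include the share over all clusters. The interval of MAN2A2 did not overlap those of GSE1 and MACF1, but the difference between the genes was not tested. These intervals too cover counting error only and treat clusters of the same transcript as independent, which they are not. The shares with the peaks included are high in part by the choice of genes. They are set beside those of the other genes with many peaks further below.

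**Figure D3:**
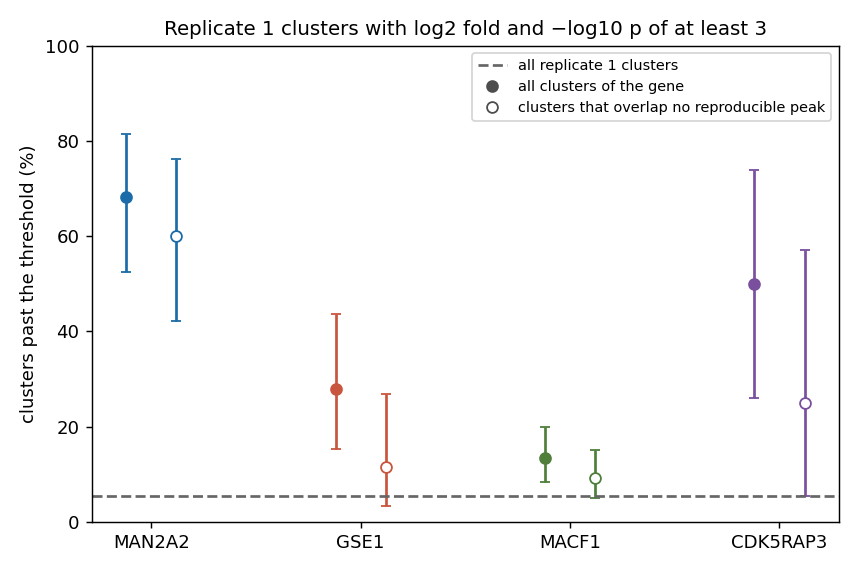
Share of replicate 1 clusters that passed the criteria for log2 fold and −log10 p (y axis, %) in each gene, for all its clusters (filled circles) and for those that overlap no reproducible peak (open circles), with exact Clopper-Pearson 95% intervals. The dashed line is the 5.35% of all replicate 1 clusters, and MAN2A2 stays far above it at 60.0% without the clusters of its peaks.

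The passing clusters of replicate 1 outside peaks were of 2 kinds, those with a replicate 2 cluster beneath them and those without. In MAN2A2, 9 of the 30 passing clusters overlapped a peak, 5 overlapped a replicate 2 cluster that is not part of a peak, and 16 had no replicate 2 cluster. The strongest of the last kind, chr15:91454288-91454371, had a log2 fold of 5.62 and a −log10 p of 25.4. MACF1 had 7 passing clusters without a replicate 2 cluster, among them its highest log2 fold in replicate 1 (5.55, chr1:39749892-39749966, −log10 p 12.2). GSE1 had 4 such clusters and CDK5RAP3 had 0 of 9.

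Conversely, many clusters of replicate 2 carried no peak. In GSE1, the clusters chr16:85697268-85697343 and chr16:85689948-85690045 had 47 and 46 reads, more than 7 of its 8 peaks, with replicate 1 log2 folds of 2.997, just under the criterion, and 2.24. In MACF1, the clusters with 32 and 30 reads at chr1:39896380-39896513 and chr1:39757581-39757641 had log2 folds of 1.83 and 1.62. In CDK5RAP3, the clusters chr17:46051818-46051869 and chr17:46051910-46051950, directly upstream of its first peak, held 43 reads each with log2 folds of 3.36 and 3.23, and neither is part of a peak. The median of reads was 57 in the CDK5RAP3 clusters at a peak and 37 in the others, 27 against 15 in MAN2A2, 24 against 14 in GSE1 and 14 against 9 in MACF1. Reads enter into the calling of peaks, so this order is no independent result.

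The clusters of the 4 genes were found in both replicates to differing degrees. Over all distinct replicate 2 clusters, 32.0% overlapped a replicate 1 cluster. The share was 75.0% in CDK5RAP3 (15 of 20, interval 50.9 to 91.3%), 71.4% in MAN2A2 (20 of 28, 51.3 to 86.8%), 58.2% in MACF1 (71 of 122, 48.9 to 67.1%) and 46.2% in GSE1 (24 of 52, 32.2 to 60.5%). Most clusters of the series have few reads, however, and among clusters with at least 10 reads the share over all genes was 67.0%. By that measure MAN2A2 (76.0%), CDK5RAP3 (75.0%) and GSE1 (57.1%, interval 41.0 to 72.3%) had intervals that include the share over all genes. That of MACF1, with 81.0% (51 of 63, 69.1 to 89.8%), lay above it. Here too the intervals cover counting error only, clusters of a transcript are not independent, and the difference was not tested. The clusters that were found in replicate 2 alone had a median of 5 reads in MACF1 and 34 in CDK5RAP3.

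Reads in clusters that overlap a reproducible peak made up 50.1% of the replicate 2 reads of CDK5RAP3, 39.2% in MAN2A2, 26.1% in GSE1 and 9.93% in MACF1. The share was 2.09% over the reads of all clusters, but only 4.06% of genes have a peak. The higher shares of the 4 genes thus follow largely from their choice by number of peaks and are no independent result. The 4 genes thus have almost the same number of peaks, but in CDK5RAP3 the peaks hold about as many reads as all its other clusters, and in MACF1 they hold a small part.

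Peak numbers were then set beside read depth. Of the 10872 genes with a replicate 2 cluster, 4.06% had a reproducible peak and 0.166% had 7 or more. For each gene, the 10 genes next above and the 10 next below it in replicate 2 reads were listed. For MAN2A2 these had 528 to 563 reads, 15 of 20 had no peak, and the most was 6 in U2AF1, a subunit of the factor that recognizes the 3’ splice site. For CDK5RAP3, 11 of 20 had no peak and the most was 4 in HSPA5, the chaperone of the endoplasmic reticulum. For GSE1, 8 of 20 had no peak and the most was 5 in CCAR1. None of these neighbours of MAN2A2, CDK5RAP3 and GSE1 had as many peaks as the gene itself, which follows in part from their selection on peak number. MACF1 differed. Among its 20 neighbours, 4 had at least 7 peaks, and the most was 9 in ACTB, the cytoplasmic β-actin gene, which had the same 1218 reads.

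**Figure D4:**
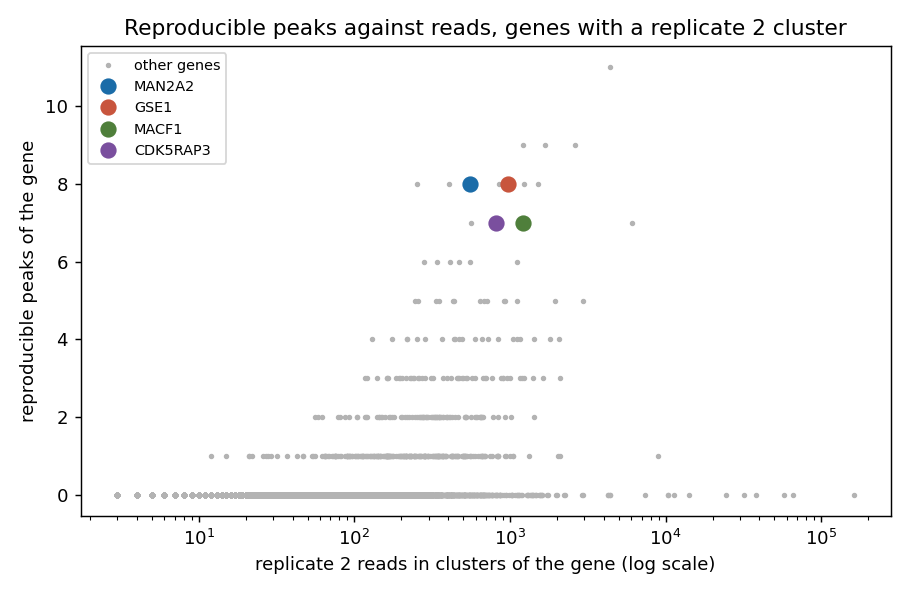
Number of reproducible peaks of each gene (y axis) against its replicate 2 reads in clusters (x axis, log scale) for the 10872 genes with a replicate 2 cluster, with the 4 genes in colour. MAN2A2 reaches 8 peaks at 549 reads and MACF1 7 peaks at 1218.

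When a peak was counted for each gene whose replicate 2 cluster it overlapped, 18 genes had 7 or more peaks. The other 14 were HNRNPA2B1 with 11, LENG8, SRRM2 and ACTB with 9, HNRNPA1, ENSG00000258344, PPIL2, TOP3B, CCNL1 and SRSF6 with 8, and OGT, CCNL2, EIF4A2 and GIGYF1 with 7. Several of these, such as OGT, TOP3B and GIGYF1, are no splicing factors either, so the 4 genes are not all such genes with this many peaks. HNRNPA1 and ENSG00000258344 had peaks over the same 2571 bp. In the 14 genes, the stretch from the first to the last peak was 808 to 24344 bp with a median of 3386 bp. The stretches of CDK5RAP3 (3295 bp), GSE1 (9585 bp) and MAN2A2 (10446 bp) lay within that range, and that of MACF1 (157184 bp) was longer than all of them. The cluster with the most reads held 27 to 339 reads in the 14 genes, with a median of 104.5. The values of MACF1 (34), MAN2A2 (41) and GSE1 (52) lay in the lower part of that range. With clusters at peaks included, 5.26 to 84.6% of the replicate 1 clusters of the 14 genes passed the criteria (median 41.3%). All 4 genes lay within this range of shares. MAN2A2 (68.2%) and CDK5RAP3 (50.0%) were above the median, and GSE1 (27.9%) and MACF1 (13.4%) were below it.

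The gene models were compared in GENCODE v44, whose positions are in hg38 and were not mixed with those of the peaks. MAN2A2 (chr15:90902218-90922584) has 23 exons in its canonical transcript, CDK5RAP3 (chr17:47967810-47981781) 14, GSE1 (chr16:85169525-85676204) 16 and MACF1 (chr1:39081316-39487177) 101. GSE1 spans 506680 bp there, while its clusters spanned 53765 bp in hg19. The median intron was 271.5 bp long in MAN2A2, 368 bp in CDK5RAP3, 1088 bp in MACF1 and 1306 bp in GSE1, all shorter than the median of 1753 bp over the 10423 genes with a model. The median was 786 bp among genes that carry a peak and 1816 bp among the others, without regard to depth. Against the genes next in reads, the introns of MAN2A2 were shorter than those of all 20, which had medians of 571 to 7915 bp. CDK5RAP3 had 5 of 20 neighbours with shorter introns, GSE1 8 of 19 and MACF1 12 of 20. By this measure MAN2A2 stood outside the range of its neighbours in reads, and the other 3 genes lay within it. Over all genes with introns in their model, the median intron of MAN2A2 lay at percentile 9.51 and that of CDK5RAP3 at 13.4. Many genes outside the neighbours thus have introns as short, and gene length was not matched.

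**Figure D5:**
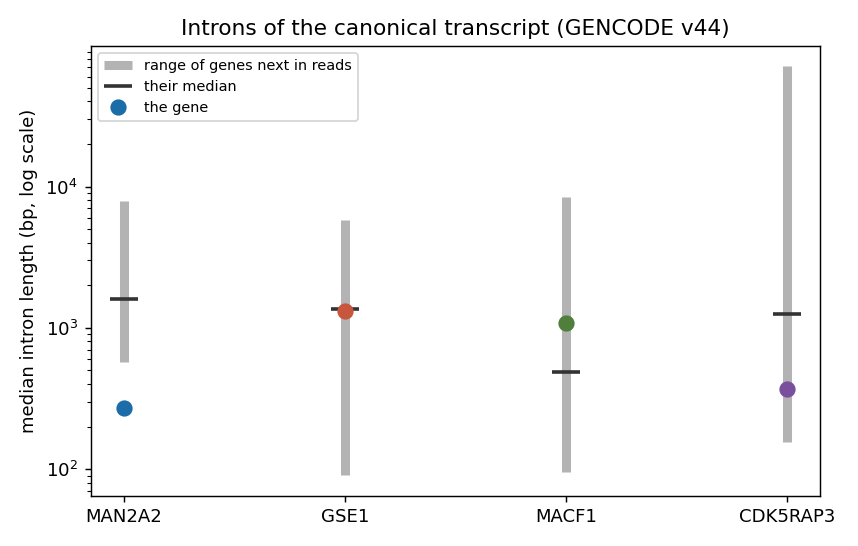
Median intron length of the canonical transcript in GENCODE v44 (y axis, bp, log scale) for each gene (coloured circle), with the range (grey bar) and median (black line) over the genes next to it in replicate 2 reads. MAN2A2, with 271.5 bp, lies below all 20 of its neighbours.

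GC content also differed among the genes. The gene bodies of GSE1 (56.6%) and MAN2A2 (55.3%) were richer in G and C than every one of their neighbours in reads with a model, whose medians were 41.7% and 45.1%. Over all genes with a model, GSE1 and MAN2A2 lay at percentiles 88.3 and 85.3. CDK5RAP3 had 51.5%, with 4 of 20 neighbours above it, and MACF1 42.6%, with 10 of 20 above it. On the transcribed strand sense, G made up 28.8% of GSE1, 28.7% of MAN2A2, 25.9% of CDK5RAP3 and 21.9% of MACF1, against a median of 22.8% over all genes with a model. These values are for whole genes. The sequence of the peaks themselves was not read, since the genome at hand is hg38.

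The partners of each protein were looked up to see whether their transcripts carry RBM17 peaks too. Of 14 enzymes of N-glycan processing listed for MAN2A2, 12 had replicate 2 clusters and 0 had a reproducible peak, which allows a share of up to 25%. Such a limit is approximate, 3 divided by the number of genes with clusters. Of their replicate 1 clusters, 7 of 168 passed the criteria (4.17%, against 5.35% of all clusters), with 2 each in MAN1A1, GANAB and PRKCSH, 1 in MGAT4B and 0 of 31 in MAN2A1, the other Golgi α-mannosidase of this step. All 8 listed genes of UFM1 conjugation had replicate 2 clusters, with 4 to 58 reads, and 0 had a peak, which allows up to 37.5%. In UFL1, the ligase that CDK5RAP3 binds, 0 of 7 replicate 1 clusters passed the criteria. Of 11 listed genes of the CoREST and BRAF35-HDAC complexes, 10 had clusters and 0 had a peak (up to 30%), with 12 of 304 replicate 1 clusters past the criteria (3.95%).

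Among 14 listed plakins, spectrins and microtubule plus-end factors, 11 had clusters and 2 had a peak, PLEC, the plakin that ties intermediate filaments to other structures, and MAPRE3, a protein of growing microtubule ends, with 1 peak each. PLEC had 264 reads and MAPRE3 109. In this list 8 of 347 replicate 1 clusters passed (2.31%), 4 of 14 in MAPRE3, 2 of 30 in PLEC and 2 of 51 in CLASP1. DST, the other spectraplakin, had 122 reads and 0 of 24, and SPTBN1 and CLASP2, with 434 and 546 reads, had 0 of 72 and 0 of 80. With 4.06% of all genes carrying a peak, a count of 0 in lists of 8 to 12 genes cannot be told apart from the share over all genes.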

How the data were processed

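Files of 2 RBM17 eCLIP replicates from K562 cells and a list over both were used. Reads had been run through a published eCLIP pipeline, and the submitters' processing notes name cutadapt and STAR. The genome build is not given in the sources used here. For replicate 1 and the reproducible list, the deposited columns are a −log10 p and a log2 fold, both relative to the size-matched input. For replicate 2, the deposited value is a p-value of the peak caller, and the name of a cluster gives its gene and its reads. No file of the input was used here, and the replicates are numbered as in the descriptions of the samples.

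Clusters of replicate 2 were taken by Ensembl identifier, reproducible peaks by same-strand overlap of at least 1 bp with one of those clusters, and replicate 1 clusters by overlap with their span. Regions of peaks were joined by position from the published peak annotation. Symbols and gene models came from GENCODE v44 (10423 of 10872 genes matched). Members and gene lists were chosen with earlier results of these data known, and the named genes are the members, the genes with 7 or more peaks, the list genes with a peak and the neighbour in reads with the most peaks. Joining peaks closer than 1000 bp, the introns and base composition, the genes with 6 peaks, the values of OGT, the list genes named without a peak and the clusters singled out outside peaks were chosen after the values were seen. Intervals of shares are exact Clopper-Pearson intervals from scipy 1.17.1, and the limits given for a count of 0 are 3 divided by the number of genes. Other steps were run in pandas 2.3.3 and numpy 2.4.6 under Python 3.11.15, with figures from matplotlib 3.10.9. The overlap step was tested on simulated data. The count of passing replicate 1 clusters over the UFM1 conjugation list is not reported here. No test of a difference was made, because each replicate is 1 library and no other group was analysed.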

Additional observations from a re-analysis of the deposited data

How the results depend on the processing

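Replicate 2 reads limit the peaks of MACF1 most, with 13 to 17 reads at 6 of 7, and replicate 1 has no known depth. With a log2 fold of at least 4, MAN2A2 kept 4 peaks, GSE1 3 and CDK5RAP3 2, while MACF1 kept all 7, and the share of passing replicate 1 clusters was 38.6% in MAN2A2, 9.30% in GSE1, 5.56% in CDK5RAP3 and 4.03% in MACF1, against 2.28% of all clusters. With a −log10 p of at least 5, MACF1 kept 3 peaks and the others 7 each. Leaving out the clusters at peaks, an alternative chosen after seeing the data, gave 11.4% in GSE1 and 25% in CDK5RAP3. When an overlap had to cover 50% of the replicate 2 cluster, 48.4% of MACF1 clusters were shared, and peaks held 19.5% of the reads of GSE1 and 39.7% of those of CDK5RAP3. With clusters of at least 10 reads, 81.0% of MACF1 clusters were shared and peaks held 13.3% of its reads. The stricter settings keep fewer features by construction. Merging abutting peaks left 6 in MAN2A2 and 6 in CDK5RAP3. With one replicate at a time, by a limit on the caller p in replicate 2 or by the criteria in replicate 1, 7 to 8 peaks remained in GSE1, 6 to 7 in MACF1 and all in MAN2A2 and CDK5RAP3. The peaks had been kept over both replicates, so these counts were largely fixed by that selection and say nothing of stability. No paired analysis was possible because only 1 input sample was compared with the replicates and no result comes from a test.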

Other observations

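Just below the 4 genes in number of peaks, 6 genes had 6 peaks each, and these show how differently that number can arise. HSP90AA1, a cytosolic chaperone, had 92 of 93 replicate 1 clusters past the criteria (98.9%) and its peaks within 940 bp. CLCN7, a lysosomal chloride transporter, had 34 of 47 (72.3%) on 341 reads, and HMGN2, a nucleosome-binding protein, 13 of 18 (72.2%) on 411. U2AF1 (7 of 23), NKTR (12 of 57) and UBE2D3 (10 of 52) had smaller shares, and the 6 peaks of UBE2D3, a ubiquitin-conjugating enzyme, lay within 490 bp of a cluster span of 31472 bp. At 7 peaks, OGT, the enzyme that adds O-GlcNAc to proteins, had 6111 reads, and only 3 of its 57 replicate 1 clusters passed (5.26%), near the share of all clusters. These values are given with no test.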
